A study of Mus musculus with 8 samples.

Results

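The 71 genes described here encode heat shock proteins and molecular chaperones of the mouse. They were chosen by gene symbol: Hsp genes of the a, b, d, e, h and numbered series, Dnaja, Dnajb and Dnajc genes, genes of the Cct chaperonin, and Tcp1. The array named 75 such genes among 16390 named genes, and 71 of them had a probe with a value on all 8 arrays, as did 14030 genes in all. Each gene is represented by its brightest such probe, and 68 of the 71 have a single probe. The remaining 4 genes were dim wherever they had a value: Hspa1l on 7 arrays, Dnajc28 and Dnajc5b on 5 each and Hspb3 on 4, with no intensity above 4.65. Another 10 coding genes of the same name pattern in RefSeq had no named probe and were not analysed here, among them Hspa1a, Hspa1b, Hsph1, Hspe1 and Tcp1. The J-domain proteins contribute 24 Dnajc, 12 Dnajb and 4 Dnaja genes. The rest are 8 CCT genes, 7 Hsp70 genes, 7 small heat shock protein (small Hsp) genes, 3 Hsp110 genes, 3 Hsp90 genes, Hspd1 (Hsp60) and 2 genes of Hsp-binding proteins. The symbol Hsp110 is kept as the array gives it, since RefSeq lists it as an older symbol of both Hsph1 and Hspa4, so its values may be those of either gene.

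Embryonic germ (EG) cells, cells cultured for 6 and 3 days (Day6 and Day3), and E11.5 primordial germ cells (E11.5 PGC), the embryonic precursors of eggs and sperm, were each measured on 2 one-colour TORAY arrays. All 4 groups carry a Nanog-GFP reporter, and per the series' design text candidate pluripotent cells were purified by flow sorting during culture. Each sample's label lists the same medium, Knockout DMEM with 15% serum replacement, glutamine, LIF and bFGF, and the same inhibitors: A83-01 (Activin and Nodal receptors) at 250 nM, CHIR99021 (GSK3) at 3 µM and PD325901 (MEK) at 1 µM. Only the names of the EG, Day6 and Day3 samples carry the inhibitors, so the labels do not settle whether the E11.5 PGC met them, and nothing in them says that the 2 arrays of a group came from separate cultures or animals. The p-values therefore measure the spread between arrays, which may be technical.

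Each array gave a value for 21126 to 22404 of 23473 probes, with medians of scaled intensity from 19.99 to 20.01. By their names in the labels the arrays belong to series A (replicate 1 of Day6, Day3 and E11.5 PGC, and both EG arrays) and series B (replicate 2 of Day6, Day3 and E11.5 PGC). The EG and E11.5 PGC arrays held the markers of their labels. The summed intensity of 7 pluripotent markers was 40204 and 47391 in EG and 17144 and 15009 in E11.5 PGC, and that of 8 germ cell markers 1937 and 1428 in EG and 17389 and 10469 in E11.5 PGC. At Day3 the pluripotent sums were 23962 and 18779 and the germ cell sums 8454 and 7081. At Day6 the pluripotent sums were 29246 and 35702 and the germ cell sums 1342 and 3923. Summed over 8 fibroblast markers, the intensity was 71.3 and 123.8 (E11.5 PGC), 225.5 and 403.7 (Day3), 1311 and 102.7 (Day6) and 220.9 and 145.0 (EG). On every array at most 1 of these 8 markers lay under 4.24, the intensity below which a probe counts as near the floor. Summed markers of gonadal somatic cells (6 of 8 measured) were 45.7 and 56.4 (E11.5 PGC), 51.0 and 53.1 (Day3), 76.6 and 73.6 (Day6) and 179.1 and 194.1 (EG). Those of endothelium (4 of 5 measured) ranged from 69.4 to 401.9 and those of blood (3 of 6) from 18.4 to 59.6, with the highest values in E11.5 PGC. The part of such cells in the results was not tested. The arrays report RNA of bulk samples, so fewer cells of a type and less RNA per cell cannot be told apart.

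Molecular chaperones help other proteins to fold and keep them from clumping. Hsp70 proteins bind and release short stretches of unfolded protein in an ATP cycle that J-domain proteins start and that nucleotide exchange factors of the Hsp110 family reset, Hsp90 acts later on signalling proteins, the barrel-shaped chaperonins CCT (cytosol) and Hsp60 (mitochondria) enclose their clients, and small Hsps hold unfolded proteins without using ATP. Part of the family is switched on by heat shock factor 1, which binds inverted repeats of nGAAn (heat shock elements), and another part by the unfolded protein response of the endoplasmic reticulum (ER). Several members are made mainly in male germ cells.

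Promoters are shown for 4 genes to which the results below return: Hspb1 and Hspb8, with the largest increases, Dnajb1, which fell, and Hspd1, a member with the longer heat shock element. RefSeq promoters (GRCm38.p6, 250 bases before the annotated start to 50 after it) were found for 57 of the 71 genes. Capitals mark matches to a pair of adjoining half-sites, written GAANNTTC or TTCNNGAA (both orientations read on both strands). The stretch is chr5:135887669-135887968 (plus strand) for Hspb1, chr5:116422815-116423114 (minus strand) for Hspb8, chr8:83607925-83608224 (plus strand) for Dnajb1 and chr1:55087883-55088182 (minus strand) for Hspd1.
Hspb1: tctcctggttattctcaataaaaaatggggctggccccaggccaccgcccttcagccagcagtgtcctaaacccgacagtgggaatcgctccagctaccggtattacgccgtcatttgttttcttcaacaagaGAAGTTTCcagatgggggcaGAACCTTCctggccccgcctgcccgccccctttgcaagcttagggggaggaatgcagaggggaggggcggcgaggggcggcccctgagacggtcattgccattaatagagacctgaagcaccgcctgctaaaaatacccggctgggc
Hspb8: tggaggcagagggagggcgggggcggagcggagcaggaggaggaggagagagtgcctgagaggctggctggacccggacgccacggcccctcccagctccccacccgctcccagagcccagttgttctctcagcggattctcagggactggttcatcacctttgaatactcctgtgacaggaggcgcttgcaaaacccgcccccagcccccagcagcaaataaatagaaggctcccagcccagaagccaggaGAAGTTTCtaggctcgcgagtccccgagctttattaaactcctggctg
Dnajb1: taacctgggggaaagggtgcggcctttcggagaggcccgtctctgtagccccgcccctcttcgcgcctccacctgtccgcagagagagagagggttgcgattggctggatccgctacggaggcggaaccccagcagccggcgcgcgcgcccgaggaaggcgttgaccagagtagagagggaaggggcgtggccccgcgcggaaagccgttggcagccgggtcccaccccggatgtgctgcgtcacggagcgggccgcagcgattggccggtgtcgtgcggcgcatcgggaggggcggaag
Hspd1: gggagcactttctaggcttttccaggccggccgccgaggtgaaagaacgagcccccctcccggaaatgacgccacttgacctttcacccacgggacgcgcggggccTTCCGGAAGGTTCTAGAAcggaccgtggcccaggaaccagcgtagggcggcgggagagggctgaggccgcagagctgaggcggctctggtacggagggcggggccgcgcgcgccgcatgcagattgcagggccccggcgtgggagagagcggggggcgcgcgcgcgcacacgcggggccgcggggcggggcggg
Hspb1 holds 2 matches and Hspb8 holds 1, which begins after the annotated start, and no match lies in this window of Dnajb1. Among other members called in EG against E11.5 PGC, Dnaja1, Cct5 and Dnajc10 fell and hold the paired motif in a promoter. Cct8, Dnajc13, Dnajc16 and Hspa4l fell and hold none, and Dnajb13, Cct6b and Hspbap1 rose and hold none. A link between the motif and the direction of change was not tested. In Hspd1 the capitals are a longer run made of 2 overlapping matches to the triple repeat, GAANNTTCNNGAA or TTCNNGAANNTTC, which contain the paired motif. Several promoters are listed for 16 of the members, and the promoters of Hspd1 and Dnajb1 that are not shown hold no match. Of 32851 promoters of this length, 15.1% hold the paired motif and 0.603% the triple one. Among the 57 members with a promoter, 14 genes (24.6%) hold the paired motif, against 17.0% of 27025 genes, and the triple one is found in Dnajb6 and Hspd1. These are matches of letters, not measured binding.

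The median change of the 71 genes lay near that of all probes at Day3 and Day6 and below it in EG, and a few genes moved far from it. The members were also brighter, with a median intensity of 145.6 beside 27.06 for all probes with a value on all 8 arrays. A gene was called where its adjusted p was under 0.05 in limma's moderated test, with Benjamini-Hochberg adjustment over all probes tested. In EG against E11.5 PGC 6 members rose and 8 fell, 19.7% of the 71, where 11.2% of all tested probes were called (5.57% higher and 5.61% lower). At Day6 against E11.5 PGC 6 rose and 2 fell, 11.3% of the 71, against 8.61% of all probes (4.34% higher and 4.28% lower). At Day3 against E11.5 PGC 2 rose and none fell, 2.82%, against 2.08% of all probes (1.33% higher and 0.754% lower). The median log2 change of the members was -0.16 at Day3, -0.22 at Day6 and -0.36 in EG, each against E11.5 PGC, beside -0.13, -0.16 and -0.16 for all probes tested. These 3 comparisons share the E11.5 PGC arrays. A blocked model, which takes out the array series, gave these calls: 10 rose and 18 fell in EG (23.6% of all probes called), 10 and 10 at Day6 (23.8%), and 3 and 5 at Day3 (8.34%). Blocked EG values rest on the assumption that the difference between series is the same in every group, since EG has no array in series B. Without the block, EG is compared on series A arrays alone with groups that hold an array of each series. A difference between series therefore enters those EG changes.

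**Figure D1:**
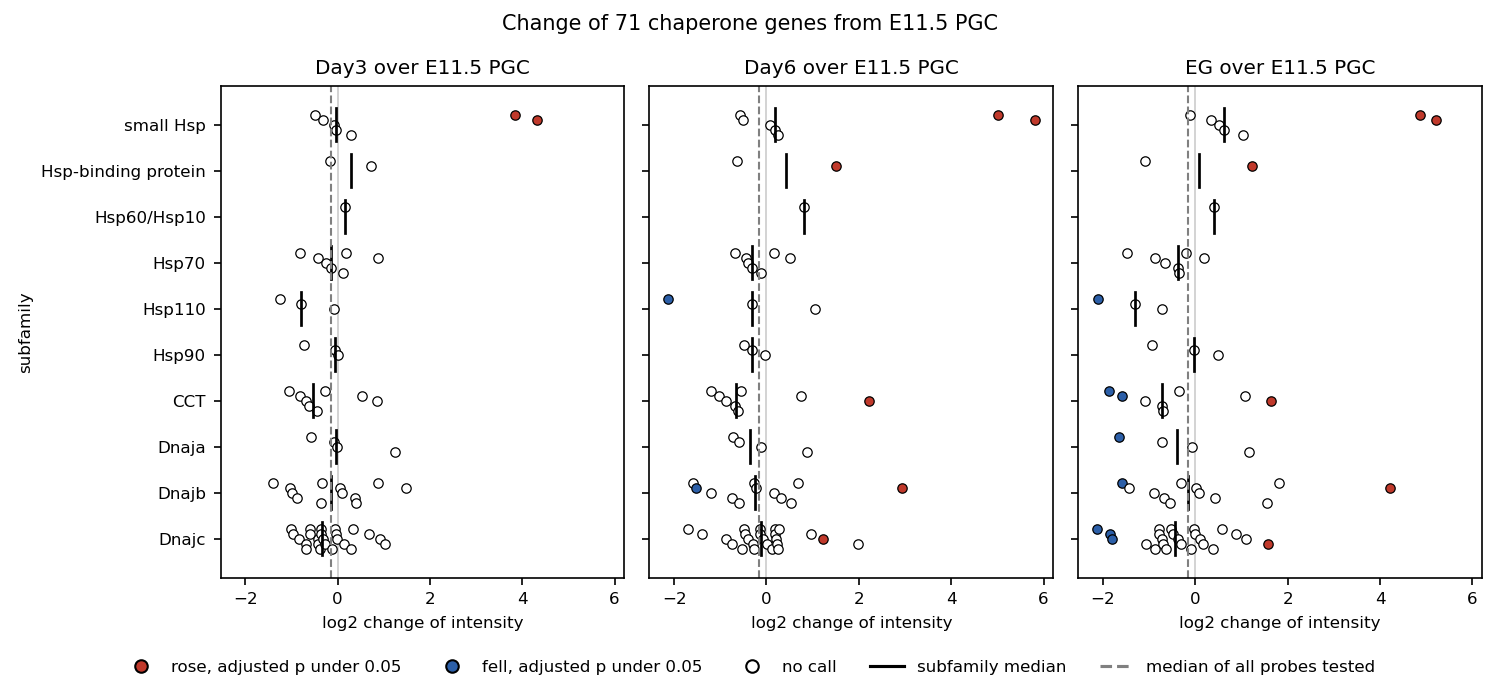
Log2 change of scaled intensity for each of 71 chaperone genes, by subfamily, in Day3, Day6 and EG over E11.5 PGC. Each point is a gene, filled where its adjusted p was under 0.05 (red rose, blue fell), black bars are subfamily medians, and the dashed line is the median of all probes tested (-0.13, -0.16 and -0.16). Hspb1 and Hspb8 lie at log2 changes of 3.85 or more in every panel and Dnajb13 at 4.21 in EG, while most genes lie within 2 log2 units of 0.

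The largest increases among the 71 genes were those of 2 small heat shock protein genes, Hspb1 and Hspb8. Hspb1, known as Hsp25 in mouse and Hsp27 in human, is a small Hsp that binds unfolded protein and protects actin filaments. It read 240.2 and 232.7 (E11.5 PGC), 3407 and 3422 (Day3), 6786 and 8577 (Day6) and 8746 and 8789 (EG). All 6 later arrays lay above both E11.5 PGC arrays, and the 2 arrays of a group lay close together. Hspb1 rose by 3.85 ± 0.26 at Day3 (log2 change ± SE, a 14.4-fold difference, adjusted p = 0.00287, limma), by 5.01 ± 0.26 at Day6 (32.3-fold, adjusted p = 0.000864) and by 5.21 ± 0.26 in EG (37.1-fold, adjusted p = 0.00057), each against E11.5 PGC. Within series A the log2 change at Day6 was 4.82, and within series B, where the fibroblast markers of the Day6 array summed to 102.7 beside 123.8 for the E11.5 PGC array, it was 5.20. Over the 8 leave-outs the log2 change of Hspb1 at Day6 lay between 4.84 and 5.18. The part of fibroblasts in this change was not tested.

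Hspb8 works with the co-chaperone Bag3 in the selective autophagy of damaged proteins. It read 16.2 and 12.6 (E11.5 PGC), 366.0 and 218.8 (Day3), 956.6 and 668.8 (Day6) and 382.1 and 455.0 (EG). The Day6 arrays were the highest of the series, and every later array lay far above E11.5 PGC. Hspb8 rose by 4.31 ± 0.36 at Day3 (19.8-fold, adjusted p = 0.00526), 5.81 ± 0.36 at Day6 (56.0-fold, adjusted p = 0.00117) and 4.87 ± 0.36 in EG (29.2-fold, adjusted p = 0.00139, limma). Hspb1 and Hspb8 kept their Day6 and EG calls without each of the 8 arrays in turn. Their Day3 calls were lost without replicate 2 of E11.5 PGC (adjusted p = 0.0505 and 0.0737, the highest over all alternatives of each), with log2 changes of at least 3.83 and 3.94 in every leave-out. The other 5 small Hsp genes gave no call at any step, and their log2 changes in EG against E11.5 PGC lay between -0.11 (Hspb7) and 1.02 (Hspb11, which encodes the intraflagellar transport protein IFT25).

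Hspbap1, named for binding Hspb1, followed at a smaller size. It read 52.9 and 51.8 (E11.5 PGC), 87.0 and 86.4 (Day3), 137.7 and 158.5 (Day6) and 128.9 and 116.4 (EG). The groups did not overlap. It rose by 1.50 ± 0.25 at Day6 (2.82-fold, adjusted p = 0.0138) and 1.23 ± 0.25 in EG (2.34-fold, adjusted p = 0.0247). The Day6 call was lost without either E11.5 PGC array (adjusted p up to 0.0883), and the EG call also without either EG array (up to 0.173). Hspbp1, which binds Hsp70 and helps to release its nucleotide, had 118.8 and 97.3 in EG and 191.8 and 269.8 in E11.5 PGC, a log2 change of -1.08 ± 0.29 (adjusted p = 0.0588). In the blocked model its adjusted p was 0.0362.

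**Figure D2:**
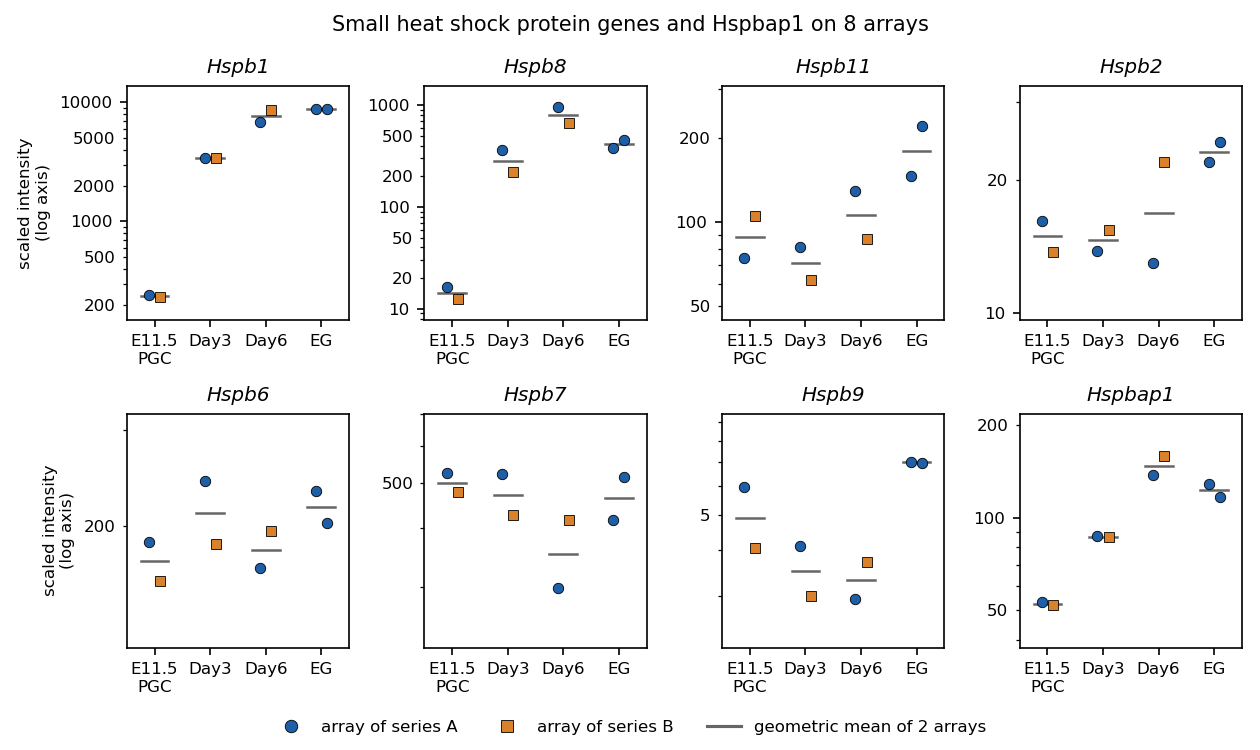
Scaled intensity (log axis) of the 7 small Hsp genes and Hspbap1 on the 8 arrays, by group in order of stage. Circles are arrays of series A, squares arrays of series B, and bars the geometric mean of a group's 2 arrays. Hspb1 and Hspb8 lie far above their E11.5 PGC values in all 6 later arrays, Hspbap1 less so, and the other panels span far less.

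The Hsp70 and Hsp90 genes gave no call in any comparison, while 11.2% of all probes were called in EG against E11.5 PGC. Hsp90aa1 had 25529 and 27940 in EG and 28590 and 25705 in E11.5 PGC, and its arrays overlapped (log2 change -0.02 ± 0.27). Hsp90ab1 had 9813 and 11102 in EG against 8501 and 6484 in E11.5 PGC, with no overlap but a change of 0.49 ± 0.27 that did not pass (adjusted p = 0.298). Hspa8 (Hsc70) had 21472 and 18763 in EG and 30772 and 17258 in E11.5 PGC, with overlap, at its brighter probe. Its second probe gave 9474 and 8581 in EG and 13278 and 13007 in E11.5 PGC, without overlap, so the probes differ in whether the groups separate. The 7 Hsp70 genes had a median log2 change of -0.38 in EG, and 6 of the 7 lay below 0, against 59.3% of all probes tested.

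Hsp110 proteins exchange the nucleotide of Hsp70. Hspa4l, a member whose loss impairs male fertility in mice, read 49.1 and 62.8 (E11.5 PGC), 16.4 and 33.2 (Day3), 10.8 and 15.0 (Day6) and 11.1 and 14.8 (EG). Both arrays of each later group lay below both E11.5 PGC arrays. Hspa4l fell at Day6 (log2 change -2.13 ± 0.41, a 4.37-fold difference, adjusted p = 0.0231) and in EG (-2.12 ± 0.41, 4.34-fold, adjusted p = 0.021). Over the 8 leave-outs the adjusted p reached 0.131 at Day6 and 0.152 in EG, and the call was lost in both comparisons without either E11.5 PGC array or either EG array, and at Day6 also without replicate 1 of Day6.

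The gene listed as Hsp110 peaked at Day6. It read 172.3 and 187.0 (E11.5 PGC), 179.8 and 162.9 (Day3), 331.4 and 419.9 (Day6) and 118.9 and 98.9 (EG). The Day6 arrays lay above all others and the EG arrays below all others. Neither difference passed the test (Day6 against E11.5 PGC 1.06 ± 0.27, adjusted p = 0.0575, and EG against Day6 -1.78 ± 0.27, adjusted p = 0.064). Both passed in the blocked model (adjusted p = 0.0177 and 0.0313). Hspa4, the third gene, had 1207 and 1284 in EG and 2233 and 4210 in E11.5 PGC, without overlap (-1.30 ± 0.50, adjusted p = 0.145), and it fell by 0.83 in the blocked model (adjusted p = 0.0355). At Day6 it had 1664 and 3655, overlapping with E11.5 PGC, and in each of Day6, Day3 and E11.5 PGC its series B array was the higher.

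Chaperonin CCT folds actin and tubulin among other clients. All 6 measured genes of its general subunits, Cct2, Cct3, Cct4, Cct5, Cct7 and Cct8, had lower means than in E11.5 PGC at Day3, at Day6 and in EG, with median log2 changes of -0.66, -0.78 and -0.92. In EG and at Day6 none of the 6 overlapped with E11.5 PGC, where 39.9% and 31% of all tested probes were lower without overlap. Cct5 had 2209 and 2176 in EG and 6314 and 10257 in E11.5 PGC. Cct8 had 2510 and 2165 in EG and 6633 and 7387 in E11.5 PGC. Both fell in EG, Cct5 by 1.88 ± 0.34 (3.67-fold, adjusted p = 0.0175) and Cct8 by 1.59 ± 0.37 (3.00-fold, adjusted p = 0.0376) on the log2 scale. With quantile normalization their adjusted p was 0.0697 and 0.119. Without single arrays it reached 0.133 and 0.227, the Cct5 call being lost without replicate 2 of E11.5 PGC or either EG array and the Cct8 call without either array of E11.5 PGC, Day3 or EG.

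Cct2 had 3319 and 3382 in EG and 7948 and 6494 in E11.5 PGC (log2 change -1.10 ± 0.31, adjusted p = 0.0636). Cct3, Cct4 and Cct7 changed by -0.73, -0.36 and -0.71 in EG without passing the test. In the blocked model 5 of the 6 genes, all but Cct4, fell in EG, where 14.4% of all probes fell, and 4 fell at Day6, namely Cct2, Cct5, Cct7 and Cct8, where 14.3% did. For Cct5 at Day6 the log2 change was -0.97 within series A and -1.10 within series B.

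Cct6b, a paralog of the zeta subunit made in testis, went the other way. It was near the floor in E11.5 PGC (3.71 and 4.06) and then read 5.42 and 5.84 (Day3), 21.1 and 15.5 (Day6), and 11.3 and 12.9 (EG). The groups did not overlap, and the highest values were those of Day6. It rose by 2.22 ± 0.28 at Day6 (4.66-fold, adjusted p = 0.00551) and by 1.64 ± 0.28 in EG (3.11-fold, adjusted p = 0.014), sizes that depend on values near the floor. The Day6 call held without each array (adjusted p up to 0.0448), and the EG call was lost without either E11.5 PGC or either EG array (up to 0.131). Cct8l1 stayed dim, between 1.53 and 5.51 on all arrays, and rose in EG against E11.5 PGC in the blocked model alone (1.36, adjusted p = 0.0294).

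**Figure D3:**
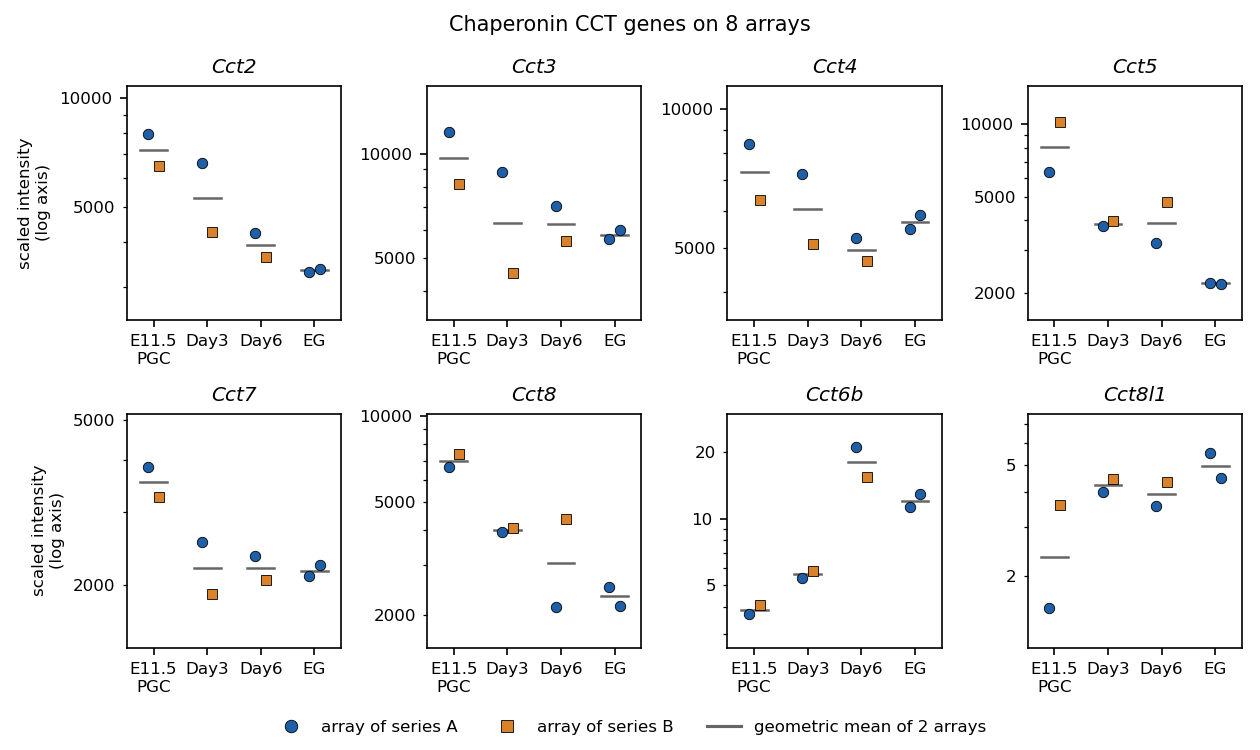
Scaled intensity (log axis) of 8 CCT genes on the 8 arrays, by group in order of stage, with circles for arrays of series A, squares for series B and bars for geometric means. The 6 general subunits are lower in both EG arrays than in both E11.5 PGC arrays, and Cct6b is higher.

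The mitochondrial chaperonin gene Hspd1 was not lower in the later groups. It had 10998 and 10284 at Day6 and 7292 and 5018 in E11.5 PGC, a log2 change of 0.81 ± 0.30 that did not pass the test (adjusted p = 0.151) and passed in the blocked model (0.0329). In EG it had 8377 and 7741, a change of 0.41 ± 0.30 (adjusted p = 0.43). Of 8 measured genes of a mitochondrial chaperone list, none was called in EG or at Day6 against E11.5 PGC, where 11.2% and 8.61% of all probes were. The list's median log2 change in EG was -0.73, beside -0.16 for all probes tested. Without overlap 5 of the 8 were lower and 2 higher in EG, where 39.9% of all probes were lower without overlap. In the blocked model 1 fell in EG (23.6% of all probes called), and 1 rose and 1 fell at Day6 (23.8%). Hspa9 (mortalin, the mitochondrial Hsp70) had 922.0 and 844.7 in EG and 1360 and 1914 in E11.5 PGC (-0.87 ± 0.33, adjusted p = 0.143).

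J-domain proteins hand clients to Hsp70 and start its ATP cycle. Dnajb1, the heat-inducible Hsp40, read 1154 and 1146 (E11.5 PGC), 614.4 and 517.2 (Day3), 451.8 and 348.2 (Day6) and 409.7 and 356.3 (EG). Its later arrays all lay below E11.5 PGC. Dnajb1 fell at Day6 (log2 change -1.54 ± 0.27, 2.90-fold, adjusted p = 0.0175) and in EG (-1.59 ± 0.27, 3.01-fold, adjusted p = 0.015), and at Day3 (-1.03 ± 0.27, adjusted p = 0.13) it passed only in the blocked model (0.0336). Without either E11.5 PGC array or either EG array both calls were lost, and at Day6 also without replicate 2 of Day6, with adjusted p up to 0.0986 at Day6 and 0.136 in EG.

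Dnaja1, a cytosolic J-domain partner of Hsp70, had 374.2 and 297.0 in EG and 1221 and 907.8 in E11.5 PGC. It fell in EG by 1.66 ± 0.31 on the log2 scale (3.16-fold, adjusted p = 0.02). Dnajc13 (RME-8), which acts on endosomes, had 88.4 and 66.7 in EG and 271.4 and 420.1 in E11.5 PGC. It fell by 2.14 ± 0.53 in EG (4.40-fold, adjusted p = 0.045), and a second probe read 28.5 to 62.8 on the series B arrays and at most 1.80 on the series A arrays that measured it. Dnajc10 (ERdj5), a disulfide reductase of the ER, had 41.0 and 42.6 in EG and 128.5 and 178.2 in E11.5 PGC. It fell by 1.86 ± 0.38 (3.62-fold, adjusted p = 0.0257). Dnajc16 had 11.3 and 13.7 in EG and 37.1 and 50.7 in E11.5 PGC, and fell by 1.80 ± 0.45 (3.49-fold, adjusted p = 0.0461). None of these 4 genes overlapped between EG and E11.5 PGC, and each call was lost without either E11.5 PGC or either EG array, with adjusted p up to 0.161, 0.253, 0.157 and 0.235 in the order given. With quantile normalization Dnajc13 and Dnajc16 had adjusted p of 0.0852 and 0.051.

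Among J-domain genes that rose, Dnajb13, a part of the radial spokes of the sperm tail, changed most. It read 4.01 and 6.23 (E11.5 PGC), 18.4 and 10.7 (Day3), 42.2 and 34.2 (Day6) and 74.8 and 114.3 (EG). Each group lay above the one before it without overlap. Dnajb13 rose by 2.93 ± 0.40 at Day6 (7.60-fold, adjusted p = 0.00734) and by 4.21 ± 0.40 in EG (18.5-fold, adjusted p = 0.00263), again from a level close to the floor. The EG call held without each array (adjusted p up to 0.0359), and the Day6 call was lost without replicate 1 of E11.5 PGC (0.0557). Dnajc22 had 17.97 and 25.9 in EG, against 6.41 and 8.21 in E11.5 PGC, and rose by 1.57 ± 0.31 (2.97-fold, adjusted p = 0.0229), a call lost without either E11.5 PGC or either EG array (up to 0.181).

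Dnajc7, which binds Hsp70 and Hsp90 through its TPR repeats, was highest at Day3 and Day6. It read 623.5 and 663.3 (E11.5 PGC), 1153 and 1276 (Day3), 1225 and 1819 (Day6) and 699.3 and 747.4 (EG). Day3 and Day6 did not overlap with the other groups. Dnajc7 rose at Day6 against E11.5 PGC (1.21 ± 0.29, 2.32-fold, adjusted p = 0.0455), a call lost whichever array was left out (adjusted p = 0.0522 to 0.191) and with quantile normalization (0.0913). In EG it was lower than at Day6 by 1.05 ± 0.29 on the log2 scale without passing the test (adjusted p = 0.202).

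Other J-domain genes were called in the blocked model and not in the model without it. In EG against E11.5 PGC these were Dnajb4, Dnajc24 (diphthamide synthesis), Dnajc2 (ribosome-associated), Dnajc9 (a histone chaperone) and Dnajb11 (ER), which fell, and Dnajb2, Dnajb14 and Dnajc6 (auxilin, of clathrin uncoating), which rose. Dnajc24 (-1.07 ± 0.28, adjusted p = 0.0526 without the block) also passed with a pseudocount, without the dimmest probes, with trended robust variance and without either Day6 array, and Dnajb2 (1.54, adjusted p = 0.103) without either Day6 array. Dnajb14 had 179.7 and 199.7 in EG and 76.8 and 38.2 in E11.5 PGC, and its Day6 arrays (108.1 and 42.1) differed by series as its Day3 arrays did (162.8 and 61.5). Its log2 change in EG was 1.81 ± 0.63 without the block (adjusted p = 0.117) and 1.18 with it (adjusted p = 0.0139). Dnajb4 had 34.5 and 41.1 in EG and 134.8 and 77.9 in E11.5 PGC, and spread from 17.8 to 110.0 at Day6 (EG change -1.45 ± 0.78, adjusted p = 0.286, and 0.0297 with the block). At Day6 the blocked model called Dnajc10, Dnajc13, Dnajc16 and Dnajc9 lower than in E11.5 PGC and Dnajc5g and Dnajc6 higher, beside Dnajc7. At Day3 it called Dnajc10, Dnajb9 and Dnajb1 lower and Dnajc7 higher. Dnajc6 and Dnaja4 started near the floor, at 2.87 and 3.55 and at 2.13 and 1.97 in E11.5 PGC, so their changes rest on dim values.

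**Figure D4:**
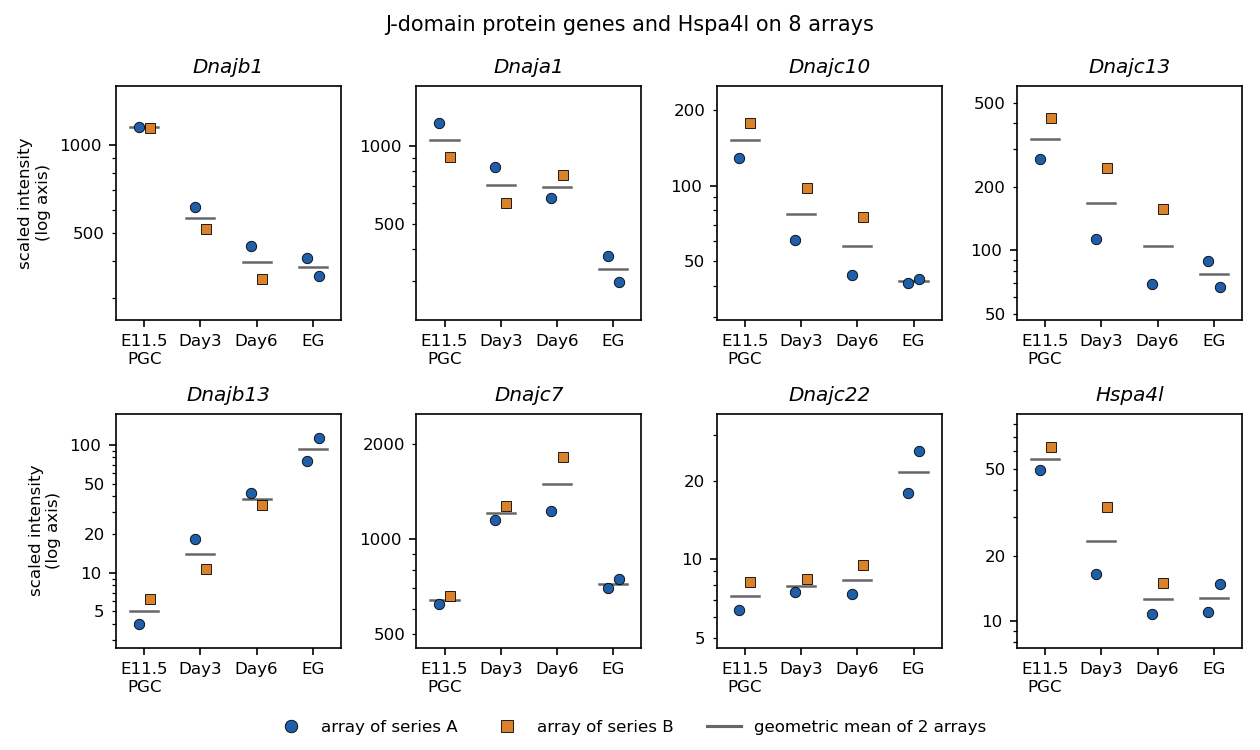
Scaled intensity (log axis) of 7 J-domain genes and Hspa4l on the 8 arrays, by group in order of stage, with circles for arrays of series A, squares for series B and bars for geometric means. Dnajb1, Dnaja1, Dnajc10, Dnajc13 and Hspa4l are lower in EG than in E11.5 PGC, Dnajb13 and Dnajc22 are higher, and Dnajc7 is highest at Day3 and Day6.

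Steps between neighbouring later groups gave no call among the members. In limma's test none of the 71 was called at Day6 against Day3, where 0% of 20015 probes were, and 8 members had an unadjusted p under 0.05 (1783 of all probes). None was called in EG against Day6, where 0.169% of all probes were, and 12 members had an unadjusted p under 0.05 (2618 of all 20103 probes). In the blocked model Hspb1, Hspb8 and Cct6b rose at Day6 against Day3 by 1.16, 1.50 and 1.69 (adjusted p = 0.0494, 0.0324 and 0.031, where 1.8% of all probes were called). In EG against Day6, the blocked model called Dnajc22 higher (1.51, adjusted p = 0.0471) and Hsp110 lower (-1.73), with 1.96% of all probes called. Hspb8 was lower in EG than at Day6 by 0.94 without passing the test.

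Heat-inducible members did not move together. Of a list of 12 HSF1 target genes, 8 were measured, and in EG 2 rose (Hspb1 and Hspb8), 3 fell (Dnajb1, Dnaja1 and Hspa4l), and Hspd1, Hspa8 and Hsp90aa1 gave no call, where 11.2% of all probes were called. At Day6 2 rose and 2 fell (8.61% of all probes called), and at Day3 2 rose and none fell (2.08%). The list's median log2 change in EG was -0.11, between 5.21 for Hspb1 and -2.12 for Hspa4l. Among 6 measured heat shock factor genes and their partners, Hsf2 had 5.78 and 6.47 in EG and 18.6 and 47.1 in E11.5 PGC, and it fell by 2.28 ± 0.56 (adjusted p = 0.0455). Hsf1, the main heat-responsive factor, had 63.3 and 58.0 in EG and 115.3 and 144.8 in E11.5 PGC, and gave no call in EG.

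ER chaperones among the members were mostly lower. All 8 measured lay below 0 in EG against E11.5 PGC, with a median of -0.84, and 7 did not overlap, but only Dnajc10 fell in the test. Dnajc3 (-0.03) took the other sign with centring and with quantile normalization. Of all probes 59.3% lay below 0, 39.9% were lower without overlap and 5.61% fell. Hspa5 (BiP), the Hsp70 of the ER, had 2381 and 2230 in EG and 2722 and 3282 in E11.5 PGC (-0.38 ± 0.31, adjusted p = 0.494). Hsp90b1 (Grp94), the Hsp90 of the ER, had 1737 and 1731 in EG and 3084 and 3608 in E11.5 PGC (-0.94 ± 0.36, adjusted p = 0.143). Hspa13, an ER Hsp70, differed by array series: it read 39.6 to 56.3 on series B arrays and 9.57 to 19.4 on series A arrays. The promoters of Hspa5, Hsp90b1 and Dnajc3 hold the ER stress element, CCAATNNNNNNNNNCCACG on either strand, which stands in 0.119% of all promoters of this length. Their matches are shown because they set these 3 genes apart from the other members with a promoter, and the capitals are the whole element. Hsp90b1 holds a second match, on the other strand and nearer the start, shown as it reads on the strand of the gene.
Hspa5: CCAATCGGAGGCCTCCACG
Hsp90b1: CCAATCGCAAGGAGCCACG
Hsp90b1, second match: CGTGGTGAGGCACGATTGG
Dnajc3: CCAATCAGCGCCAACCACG
None of the 3 genes was called in any comparison. In a list of 16 other measured genes of ER folding and the unfolded protein response, 2 rose in EG and none fell, where 11.2% of all probes were called. Xbp1, a transcription factor of that response, had 489.0 and 413.9 in EG and 131.3 and 147.8 in E11.5 PGC (1.69 ± 0.28, adjusted p = 0.0134). Herpud1, of ER-associated degradation, had 68.1 and 59.6 in EG and 17.6 and 17.1 in E11.5 PGC (1.88 ± 0.36, adjusted p = 0.0205).

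Members known for male germ cells changed in both directions. Of 7 measured in a list of 10, Dnajb13 and Cct6b rose and Hspa4l fell, both at Day6 and in EG, where 8.61% and 11.2% of all probes were called. Hspa2, an Hsp70 of meiotic spermatocytes, had 11.7 and 17.0 in EG and 18.2 and 26.9 in E11.5 PGC (-0.65 ± 0.39, adjusted p = 0.335). Dnajb3 had 18.5 and 15.3 in EG and 26.3 and 22.8 in E11.5 PGC without a call, and its lowest value was 4.31, on replicate 1 of Day6. Dnajb8 hardly varied, between 25.8 and 39.2 on the 8 arrays.

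Co-chaperones outside the name rule were lower more often than higher. Of 24 measured co-chaperone genes of Hsp70 and Hsp90 (a list that also holds Hspbp1), 4 fell and none rose in EG, where 5.61% of all probes fell, and 19 lay below 0, where 59.3% of all probes did. Stip1 (Hop), which bridges Hsp70 and Hsp90, had 975.8 and 979.0 in EG and 2492 and 2520 in E11.5 PGC (-1.36 ± 0.30, adjusted p = 0.0307). Sgta (-1.47 ± 0.32), Bag5 (-1.43 ± 0.27) and Rpap3 (-1.30 ± 0.30) also fell. At Day6 Sgta fell alone, and 7 of the 24 fell in the blocked model, where 14.3% of all probes did. Among 11 prefoldin and CCT cofactor genes 1 rose and none fell in EG, where 5.57% of all probes rose. At Day6 against E11.5 PGC 2 of the 11 rose, where 4.34% of all probes did. The gene that rose in EG was Pdcl2, a germ cell phosducin-like protein. It was at 75.6 and 86.7 in EG and 3.46 and 4.08 in E11.5 PGC, and it rose by 4.43 ± 0.42 (adjusted p = 0.0026), a size that depends on values near the floor. In the blocked model 2 of the 11 rose and 1 fell in EG, where 23.6% of all probes were called. Of 9 mitochondrial folding and protease genes, Afg3l2 fell (-1.04 ± 0.24, adjusted p = 0.0377), where 5.61% of all probes fell, and in the blocked model 5 fell in EG, where 14.4% did.

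**Figure D5:**
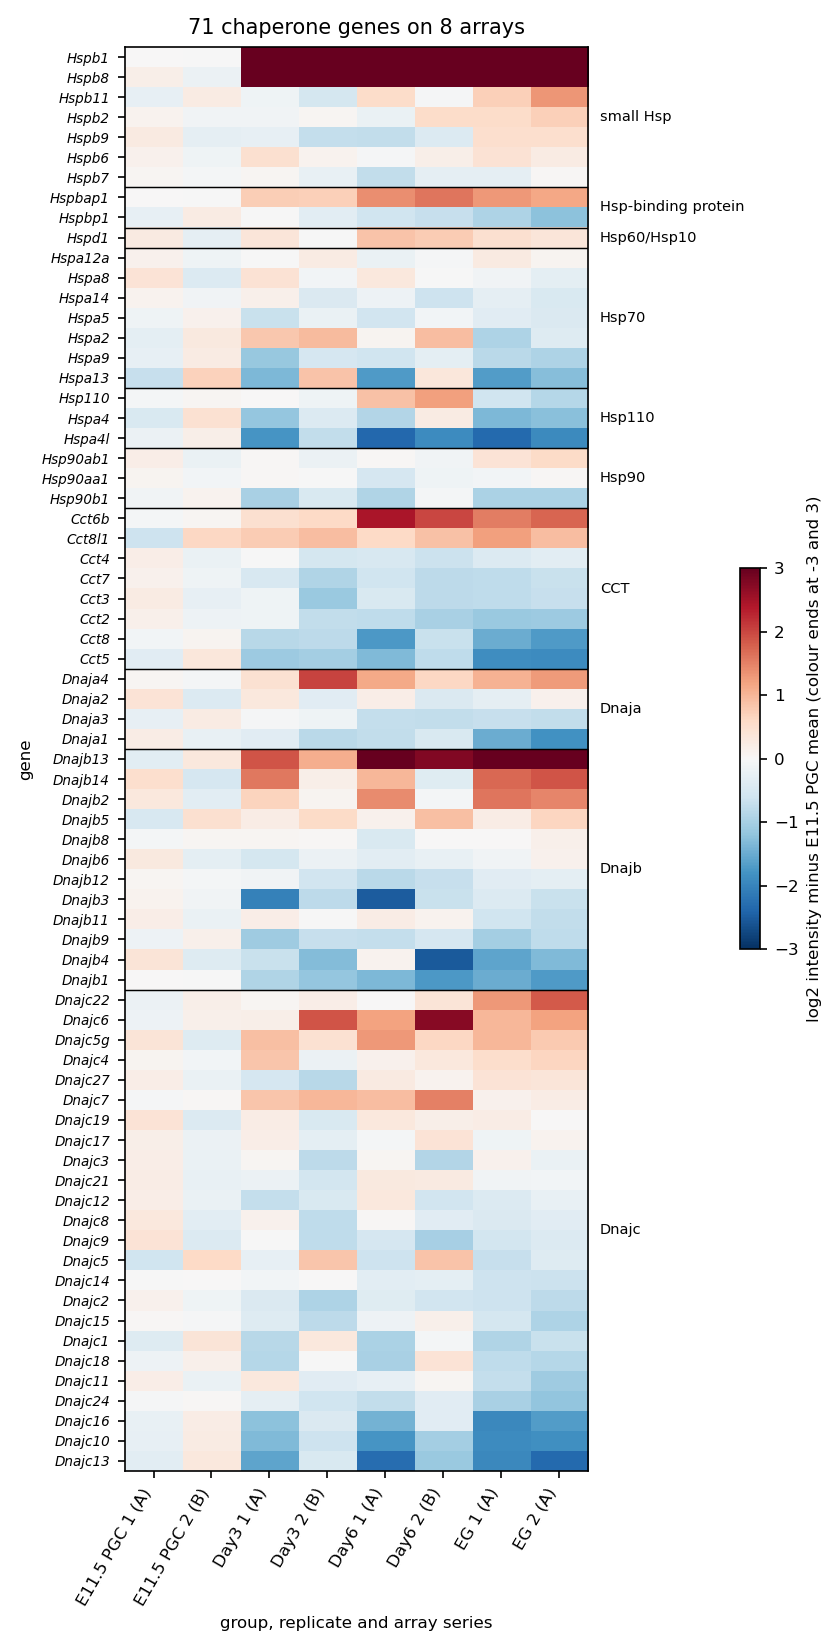
Log2 scaled intensity of the 71 genes minus the mean of the E11.5 PGC arrays, one column per array with its series (A or B), genes grouped by subfamily and ordered by their change in EG. Colours end at -3 and 3, which Hspb1 and Hspb8 exceed on all 6 later arrays. Some genes, such as Hspa13 and Dnajc5, follow the array series more than the group.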

How the data were processed

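The deposited table holds linear spot intensity from one-colour arrays, scaled by the authors so that every array's median lies near 20. Per the labels, the Cy5 dye was coupled to aminoallyl aRNA. How background was corrected and the scaling done is not given in the sources used here. Values were converted to log2 without further normalization, and missing values stayed missing. Gene symbols came from the platform annotation and were updated through the RefSeq gene table, which changed 10 members.

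Each comparison came from 1 fit with limma 3.58.1 (R 4.3.3) of the 4 groups over all 8 arrays, with two-sided moderated tests on the whole table and Benjamini-Hochberg adjustment over all probes with a value on both arrays of both groups. The code was tested on simulated data. Same-numbered arrays of Day6, Day3 and E11.5 PGC, whose numbers are the array series of the labels, deviated together from their group means over 19524 probes (r = 0.547 to 0.694 for 3 pairs of groups), unlike those of EG (-0.025 to 0.061). A model with this series as a replicate block is reported beside the model without it.

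The members, gene lists and settings were chosen with earlier results of these data known. The rule for named genes takes every member called with or without the block and the 5 highest and 5 lowest changes of each comparison. It also takes the CCT, Hsp90 and Hsp60 genes, the heat-inducible, ER and germ cell members, and called genes of the other lists. Not all called genes of the other lists are named here. Other settings were quantile normalization, centring, a pseudocount of 2.275, removal of the dimmest probes, trended robust variance, the mean of a gene's probes, symbols as given, and leaving out each array.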

Additional observations from a re-analysis of the deposited data

How the results depend on the processing

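With the array series as a replicate block, the called members numbered 8 at Day3 against E11.5 PGC (2 without it), 20 at Day6 against E11.5 PGC (8), 28 in EG against E11.5 PGC (14), 3 at Day6 against Day3 (0) and 2 in EG against Day6 (0). In EG against Day6 a pseudocount, removal of the dimmest probes, and trended robust variance each called 1 member, which was lower. Leaving out each array in turn gave 0 to 2 calls at Day3, 3 to 8 at Day6 and 3 to 16 in EG, each against E11.5 PGC. Of the calls, 0 of 2, 3 of 8 and 3 of 14 held without every array. The median log2 change of the members ranged over the leave-outs from -0.30 to -0.023 at Day3, from -0.23 to -0.067 at Day6 and from -0.40 to -0.11 in EG against E11.5 PGC, from -0.11 to 0.082 at Day6 against Day3, and from -0.20 to -0.085 in EG against Day6. Centring put the Day6 median at -0.12, and quantile normalization the EG median at -0.26. The 61 changes called with or without the block (over the 5 comparisons) kept their direction under every setting run, while 122 of the other 294 changes of members took the other sign under at least 1 setting, among them those of Hspa8 and Hsp90aa1 in EG against E11.5 PGC. Leaving out an array of either compared group lowered the share of all probes called in each comparison against E11.5 PGC. The loss of calls was therefore not limited to the members. With 2 arrays a group, leaving one out makes the lone array take its spread from the other groups. The causes were not tested. The number of arrays limits the precision, and probes near the floor, such as Cct6b in E11.5 PGC, have uncertain folds.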
